A study of Homo sapiens with 4 samples.

Results

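The RNA of the 8 TRiC subunit genes, TCP1, CCT2, CCT3, CCT4, CCT5, CCT6A, CCT7 and CCT8, was followed through a miRNA pull out assay in DU-145 cells, a human cell line that was established from metastatic prostate carcinoma. All 23 RefSeq transcripts of these genes among the 53209 in each library were taken by gene symbol, and the FPKM of the transcripts of a gene were summed. FPKM is a level per length of transcript and depth of library, so that levels of different genes can be set side by side. The 8 genes are the subunits by name but were selected on measured FPKM of the comparison between the arms, in which CCT7 had been singled out, so their values in that comparison are given as a description and carry no test. All 8 gene sums, and the 14 transcripts above 0 in at least 1 library, passed the filter of a mean of 0.5 scaled FPKM, and the other 9 transcripts were listed at 0 in all 4 libraries.

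Cells of both arms received 60 nM of extra miR-28-5p as a duplex, were irradiated with UV light on the following day and gave RNA that was incubated with streptavidin beads. In the miR-28CT or untagged arm (2 libraries) the duplex carried no tag, and its libraries give the background of RNA held by the beads. In the miR-28BIO or tagged arm (2 libraries) the cells received a mixture of duplexes with biotin at the 3′ end and a thiouridine, a base that crosslinks under UV light, at nucleotide 8 or at nucleotide 18. The comparison between the arms asks which RNAs were recovered through the tagged miRNA. The FPKM of a library rested on about 12992000 to 17888000 reads, as the ratio of coverage to FPKM implies. Over genes, same-numbered libraries of the 2 arms were more alike (Pearson's r of log2 levels 0.832 and 0.772) than libraries of the same arm (0.634 in miR-28CT and 0.602 in miR-28BIO). Of 5 epithelial markers, all were above the filter (KRT19 at 20.2 to 92.2 and KRT18 at 17.1 to 98.4 scaled FPKM), whereas all 5 markers of other cell types were below it, with COL1A1 at 0.101 to 0.209 scaled FPKM, ALB at up to 0.0838 and PTPRC, HBB and PECAM1 listed at 0.

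TRiC, also called CCT, is the chaperonin of the eukaryotic cytosol. Its subunits, which are related in sequence and each come from a gene of their own, form a pair of stacked rings around a chamber that closes with ATP. Actin and tubulin are its best known substrates, and the cell cycle protein CDC20 and other proteins built from WD40 repeats also fold in it. Because every ring holds each of the paralogous subunits, the complex needs all of them.

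Of the 8 genes, 4 yielded a single transcript above 0 in all libraries and the other 4 were split between transcripts that share most of their exons. TCP1 (alpha subunit) lies on chromosome 6 of hg38 from 159778498 to 159789703, on the minus strand, and its transcript NM_030752 has 12 exons and 556 codons. CCT2 (beta subunit) lies on chromosome 12 from 69585428 to 69601577, on the plus strand, and NM_006431 has 16 exons and 535 codons. CCT3 (gamma subunit) lies on chromosome 1 from 156308961 to 156338415, on the minus strand, and NM_005998 has 14 exons and 545 codons. CCT5 (epsilon subunit) has the only transcript of its gene in the files, NM_012073, with 11 exons and 541 codons on the plus strand of chromosome 5 from 10250170 to 10266389. Codon numbers and exons are those of the GENCODE 44 transcript that matched the deposited bounds and length, which was found for 19 of the 23 transcripts.

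The genes with a split were CCT4, CCT6A, CCT7 and CCT8, and in each the transcripts differed by the exons between a small number of splice junctions. CCT7 (eta subunit) lies on the plus strand of chromosome 2 from 73234236 to 73253022. Its full transcript NM_006429 has 12 exons and 543 codons, NM_001166284 lacks exons 2 and 3 of it (10 exons, 456 codons), and NM_001009570 lacks exons 2 to 6 (7 exons, 339 codons). CCT4 (delta subunit) lies on the minus strand of the same chromosome from 61868127 to 61888671, and NM_001256721 (509 codons) lacks the 90 bases of exon 3 of NM_006430 (539 codons). CCT6A (zeta subunit) lies on the plus strand of chromosome 7 from 56051685 to 56063989, and NM_001009186 (486 codons) lacks the 135 bases of exon 3 of NM_001762 (531 codons). CCT8 (theta subunit) lies on the minus strand of chromosome 21 from 29056322 to 29073797, and NM_001282909 (475 codons) lacks the 80 bases of exon 3 of NM_006585 (548 codons).

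**Figure D1:**
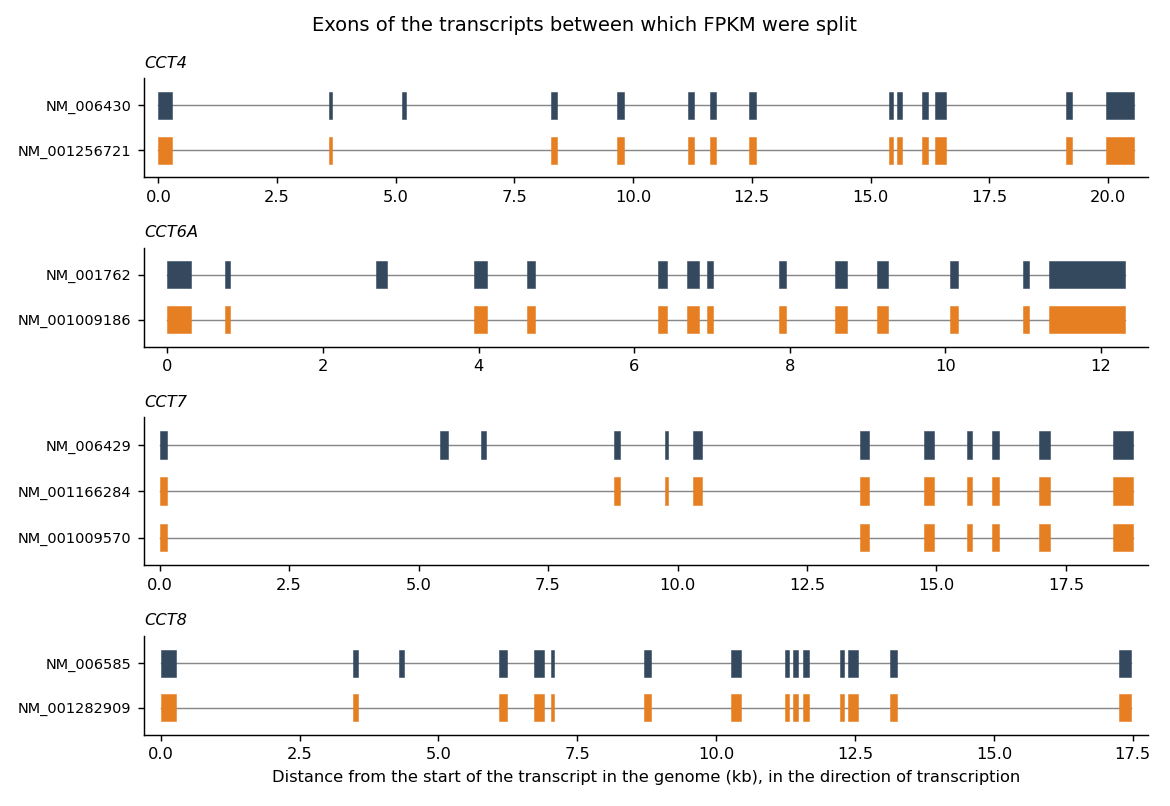
Exons (boxes) and introns (lines) of the transcripts of CCT4, CCT6A, CCT7 and CCT8 between which FPKM were split, drawn to scale against the distance in kb from the start of the transcript, with the fullest transcript in blue and the others in orange (NM_001282907 of CCT8, which had no GENCODE match, is not drawn). The shorter transcripts lack 1 exon in CCT4, CCT6A and CCT8, and exons 2 and 3 or exons 2 to 6 of CCT7.

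The junctions that set these transcripts apart are shown because the split of FPKM between the transcripts depends on reads over them and on the exons they skip. Each sequence was read from hg38, runs 5′ to 3′ in the sense of the transcript over at most 15 bases on each side of the junction, stops at the start codon where that is nearer, and has the last 2 and first 2 bases at the junction in capitals. The skipping junction of NM_001009570 joins base 73234384 to base 73247762.
CCT7 NM_006429, exon 1 to exon 2: atgaTGCCcacaccagttatc
CCT7 NM_001166284, exon 1 to exon 4 of NM_006429: atgaTGGTgggtgatggcacc
CCT7 NM_001009570, exon 1 to exon 7 of NM_006429: atgaTGGAttctcagctggta
CCT4 NM_006430, exon 2 to exon 3: ggaatggataaaaTGATtcaagatggaaaa
CCT4 NM_001256721, exon 2 to exon 4 of NM_006430: ggaatggataaaaTGCTggtggagctgtct
CCT6A NM_001762, exon 2 to exon 3: ctgcttcacgaaaTGCAaattcaacaccca
CCT6A NM_001009186, exon 2 to exon 4 of NM_001762: ctgcttcacgaaaTGGGccttcatcctaga
CCT8 NM_001282909, exon 2 to exon 4 of NM_006585: atggaccaaaTGGTacagcatcctgct
In CCT4, CCT6A and CCT7 the junctions shown leave the same base of the same exon and differ in the exon they enter. For NM_001282907 of CCT8, which had no GENCODE match, no junction was read. The reads were 50 bases long, so that a read away from these junctions and from the skipped exons fits both transcripts.

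All 8 genes were among the abundant RNAs of both arms. Their mean levels over the 4 libraries lay between 28.5 scaled FPKM for TCP1 and 91.6 for CCT3, above those of 91.8% to 97.7% of the 11309 genes tested. In the miR-28CT arm CCT3 was highest (119.9 ± 11.6, SD, n = 2), followed by CCT7 (85.3 ± 4.57), CCT5 (71.3 ± 16.6), CCT8 (67.5 ± 13.2), CCT2 (65.5 ± 4.15), CCT6A (58.5 ± 9.23), CCT4 (51.0 ± 1.79) and TCP1 (34.6 ± 1.00). There, the ranges of the libraries separated CCT3 from CCT7 and CCT4 from TCP1, and all other neighbours in the order overlapped.

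In the miR-28BIO arm the order began with CCT5 (89.6 ± 13.3, SD, n = 2), CCT7 (69.3 ± 3.76), CCT3 (63.2 ± 7.16) and CCT8 (62.7 ± 13.9). CCT6A (47.6 ± 17.0), CCT2 (43.1 ± 3.60), CCT4 (32.9 ± 6.55) and TCP1 (22.5 ± 1.01) followed. The ranges separated CCT5 from CCT7, CCT2 from CCT4 and CCT4 from TCP1, whereas the others overlapped with their neighbours. TCP1 was the lowest of the 8 genes in each of the 4 libraries, and the ratio of the highest to the lowest gene was 3.16 and 3.78 in miR-28CT and 4.55 and 3.46 in miR-28BIO. In miR-28BIO the highest was CCT5, whose FPKM lay outside the intervals that Cufflinks gave for them, as described below.

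**Figure D2:**
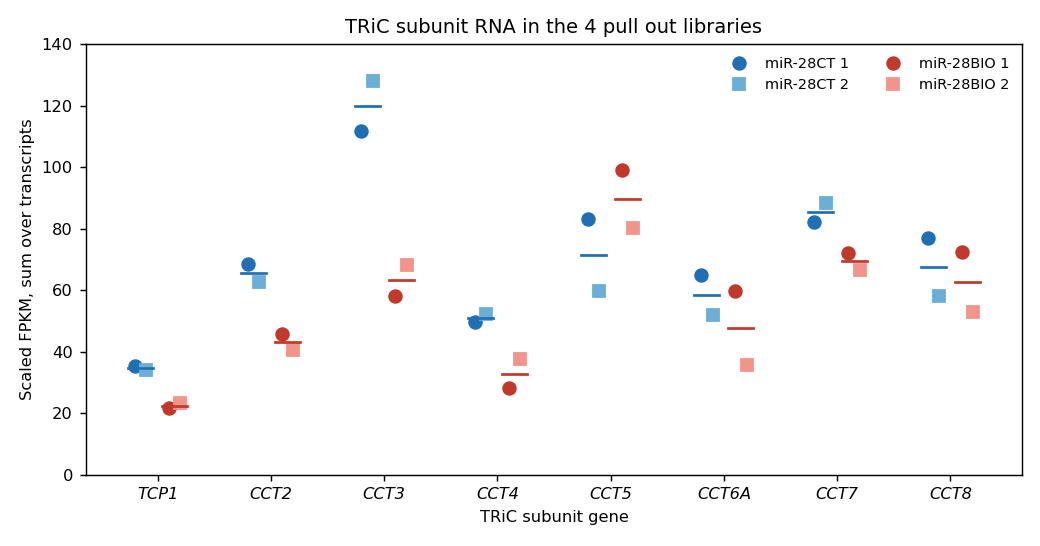
Scaled FPKM (vertical axis) of the 8 TRiC genes, summed over the transcripts of each gene, with a point for each library, circles for replicate 1 and squares for replicate 2, and short lines for the mean of each arm (miR-28CT blue, miR-28BIO red, n = 2 each). The red points lie below both blue points for TCP1, CCT2, CCT3, CCT4 and CCT7 and overlap with them for CCT5, CCT6A and CCT8.

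The RNA of 5 of the 8 subunits was lower in both miR-28BIO libraries than in both miR-28CT libraries, and no subunit was higher in both. Over all genes tested, both miR-28BIO libraries lay below both miR-28CT libraries for 12.7% and above them for 12.3%. Among the 929 genes with a mean at or above that of TCP1, 23.0% lay below. Nothing is read from the count of 5 against these shares, because the genes had been proposed with this contrast in view. The summed level of the 8 genes was 572 and 535 scaled FPKM in untagged replicates 1 and 2 and 457 and 405 in tagged replicates 1 and 2, so that the mean of the tagged arm was 77.8% of that of the untagged arm. Reads assigned to the 8 genes, as their coverage implies, numbered 25380, 13437, 20174 and 15307 in the same order. The values are parts of the RNA recovered on the beads of bulk cultures. Fewer cells holding a transcript, less of it per cell and more of other RNAs on the beads cannot be told apart.

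CCT3 had the greatest difference of the 8. It stood at 111.8 and 128.1 scaled FPKM in untagged replicates 1 and 2 and at 58.2 and 68.3 in tagged replicates 1 and 2, a log2 fold change of -0.92 (standard error 0.53). The tagged libraries were thus well apart from the untagged ones, and in them CCT3 lost the first place it held in the untagged arm. Of all genes tested, 9.96% had a lower log2 fold change. Standard errors here and below come from the limma fit, which draws the spread of each gene towards that of genes of like level.

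TCP1, CCT2 and CCT4 had log2 fold changes of similar size. TCP1 stood at 35.3 and 33.9 scaled FPKM in miR-28CT and at 21.7 and 23.2 in miR-28BIO (-0.62, standard error 0.44). CCT2 stood at 68.5 and 62.6 in miR-28CT and at 45.6 and 40.5 in miR-28BIO (-0.61, standard error 0.49). CCT4 stood at 49.7 and 52.3 in miR-28CT and at 28.3 and 37.5 in miR-28BIO (-0.65, standard error 0.48). In each of these the arms did not overlap, and the mean of the tagged libraries was 64.5% to 65.7% of that of the untagged libraries. For CCT4 the separation is one of the gene sum only, since its transcript NM_006430 taken alone overlapped between the arms.

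Of the 5 genes whose arms did not overlap, CCT7 had the smallest gap between them. Its level was 82.0 and 88.5 scaled FPKM in untagged replicates 1 and 2 and 72.0 and 66.7 in tagged replicates 1 and 2, with a log2 fold change of -0.30 (standard error 0.51). The higher tagged library was below the lower untagged library, but in the FPKM as deposited, without scaling between libraries, the 4 values were 87.3, 75.2, 76.0 and 72.5 and the arms overlapped.

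CCT6A, CCT8 and CCT5 overlapped between the arms. CCT6A stood at 65.1 and 52.0 scaled FPKM in untagged replicates 1 and 2 and at 59.6 and 35.6 in tagged replicates 1 and 2 (log2 fold change -0.34, standard error 0.56). CCT8 stood at 76.9 and 58.2 in miR-28CT and at 72.5 and 52.8 in miR-28BIO (-0.11, standard error 0.54). Both had their lower values in the libraries numbered 2 of both arms. CCT5 was the only subunit with a higher mean in the tagged arm, at 83.1 and 59.6 in miR-28CT and 99.0 and 80.2 in miR-28BIO (0.34, standard error 0.55). By FPKM its tagged library 2 nevertheless lay below untagged library 1, an order that the intervals Cufflinks gave for CCT5, described below, turn.

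Set against all genes, the median log2 fold change of the 8 subunits was -0.47, compared with -0.08 over the 11309 genes tested (quartiles -0.48 and 0.30) and -0.61 over the 929 genes with a mean at or above that of TCP1. Of the 8 log2 fold changes, 7 were below 0, and the same 7 genes were lower in the tagged library of either replicate number. In the limma fit over all genes, 0.0265% were lower in miR-28BIO at an adjusted p of 0.05 (3 genes, the snoRNAs SNORD12C, SNORD57 and SNORD58A, named after their values were seen) and 0.0% were higher. All 3 were listed at 0 in both miR-28BIO libraries, so that these calls rest on exact zeros. At an unadjusted p of 0.05, 91 genes were lower and 250 higher, but without miR-28BIO replicate 2 these were 126 and 91, without miR-28CT replicate 1 131 and 145, without miR-28CT replicate 2 62 and 133 and without miR-28BIO replicate 1 69 and 160. No balance of directions is therefore read from them. None of the TRiC genes was among the 3, which is stated without weight because of how they were chosen. With 2 libraries an arm, a two-sided exact permutation test of a single value cannot give a p below 0.333.

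**Figure D3:**
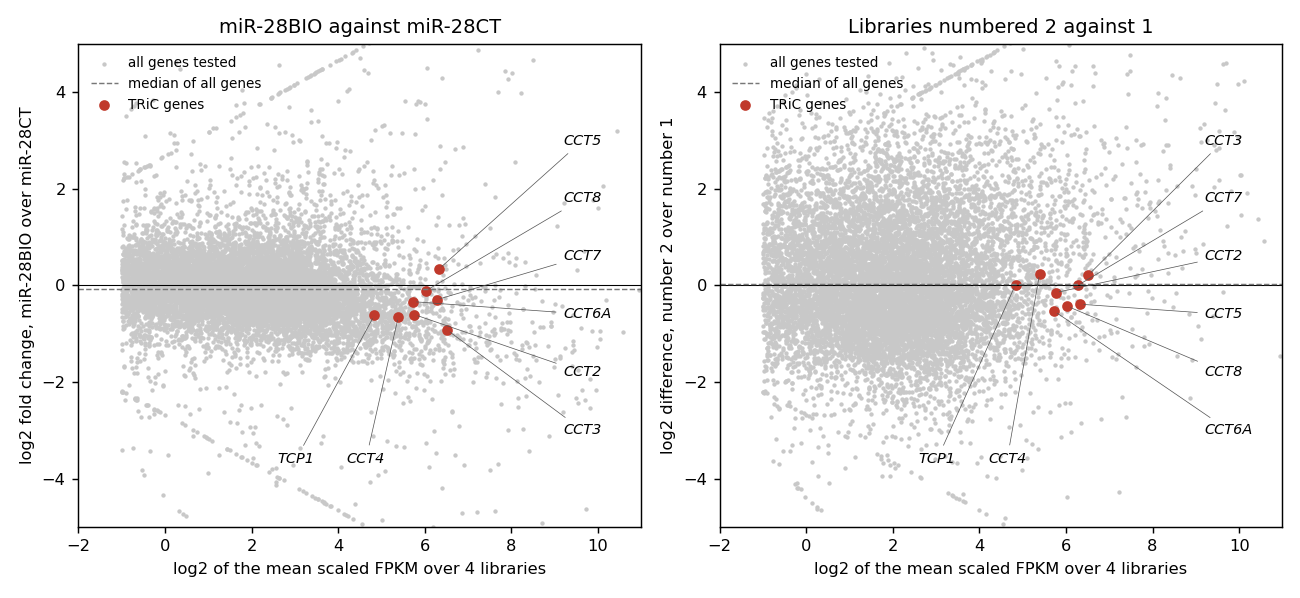
Log2 difference (vertical axes) between miR-28BIO and miR-28CT (left) and between the libraries numbered 2 and 1 (right) against the log2 of the mean scaled FPKM over the 4 libraries (horizontal axes) for the genes tested (grey, those beyond 5 on the log2 scale not drawn) and the 8 TRiC genes (red). On the left 7 of the 8 lie below 0, from -0.92 for CCT3 to 0.34 for CCT5, and on the right all 8 lie between -0.53 and 0.24.

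Within CCT7 the estimated split of FPKM between transcripts differed between libraries. The full transcript NM_006429 was at 87.3 and 57.1 FPKM, as deposited, in untagged replicates 1 and 2 and at 59.0 and 56.5 in tagged replicates 1 and 2. NM_001009570, whose junction from exon 1 to exon 7 is shown above, was listed at 0 in both untagged libraries and at 17.0 and 16.0 in the tagged libraries, which made 22.4% and 22.1% of the gene. NM_001166284 was listed at 0, 18.1, 0 and 0, or 24.1% of the gene in miR-28CT replicate 2.

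The estimate thus gave all FPKM of miR-28CT replicate 1 to the full transcript and divided those of the other 3 libraries between it and a shorter transcript, which an exact 0 does not show to be absent elsewhere. NM_001009570 was the single member transcript of 14 tested with both tagged libraries above both untagged ones, and 5 of the 14 lay below. The shares over all 15587 transcripts tested were 11.5% above and 12.0% below. Of those 15587 transcripts, 1.09% (170) shared with NM_001009570 a value of 0 in both untagged libraries and more than 1 FPKM in both tagged libraries. The coverage of NM_001009570 implies 391 and 311 reads in the tagged libraries, and the shorter transcript has no exon of its own, only the junction. In the limma fit over transcripts 0 were called in either direction, with 232 lower and 325 higher at an unadjusted p of 0.05. With a library left out these were 466 to 645 and 472 to 676, and more were lower than higher without miR-28CT replicate 1 (645 and 598) or replicate 2 (485 and 472).

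In CCT4 and CCT6A the transcript with the higher FPKM differed between the 2 untagged libraries, whereas NM_006430 and NM_001762 were the higher in both tagged libraries. NM_006430 of CCT4 was at 17.4 and 44.5 FPKM in untagged replicates 1 and 2 and at 18.4 and 35.6 in tagged replicates 1 and 2, and NM_001256721, without exon 3, was at 35.6, 0, 11.4 and 5.22. The share of NM_006430 was thus 32.9%, 100%, 61.8% and 87.2%, lower in the libraries numbered 1 than in those numbered 2. NM_001762 of CCT6A was listed at 0 in miR-28CT replicate 1 and was at 25.1 in replicate 2, 62.9 in miR-28BIO replicate 1 and 30.1 in replicate 2. Its shorter form NM_001009186 took up the rest, at 69.3, 19.1, 0 and 8.61. The miR-28CT library whose FPKM were all assigned to the short form and the miR-28BIO library whose FPKM were all assigned to the long form carry the same replicate number and had gene sums of 65.1 and 59.6 scaled FPKM.

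CCT8 was split by replicate number. NM_006585 was at 81.8 FPKM in miR-28CT replicate 1 and 76.6 in miR-28BIO replicate 1, with 100% of the gene in both. In the libraries numbered 2 it was at 19.5 in miR-28CT and 27.8 in miR-28BIO, shares of 39.4% and 48.4%, and NM_001282909 was at 29.9 and 24.9. Another transcript, NM_001282907, was at 4.66 in miR-28BIO replicate 2 and listed at 0 elsewhere. Over the 4 libraries the mean share of the leading transcript was 70.5% in CCT4, 58.6% in CCT6A, 82.8% in CCT7 and 72.0% in CCT8, with a range of more than 10 percentage points in each.

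**Figure D4:**
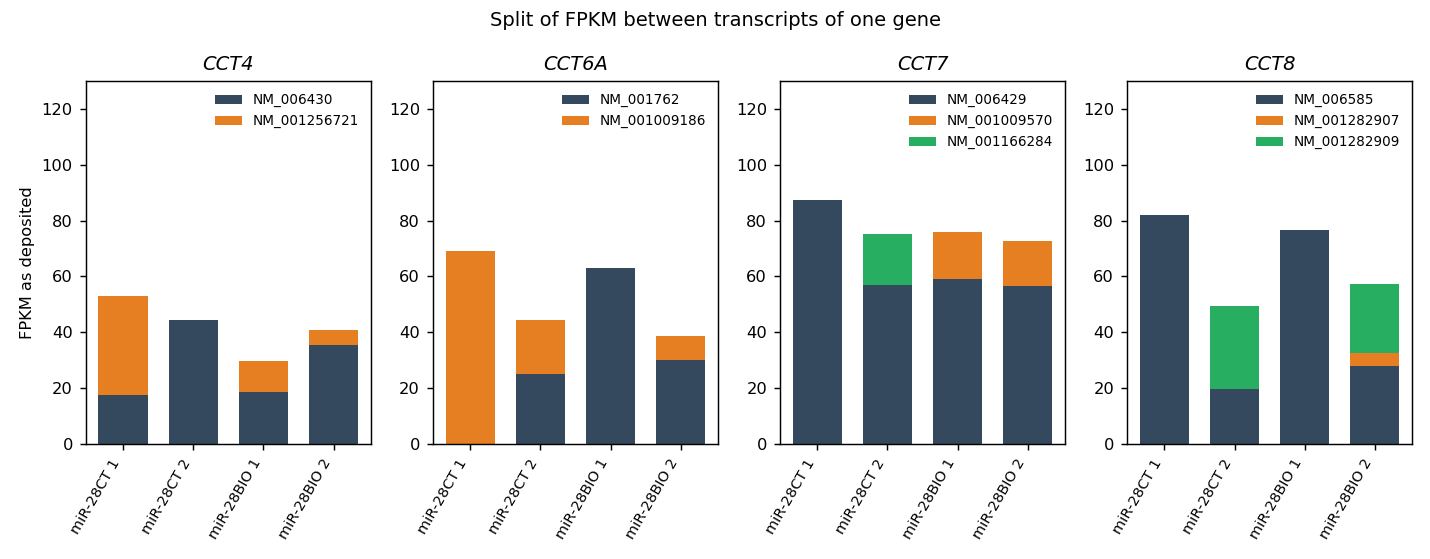
FPKM as deposited (vertical axis) of CCT4, CCT6A, CCT7 and CCT8 in each of the 4 libraries, with stacked bars for the transcripts of a gene. The gene sums of CCT7 stay between 72.5 and 87.3 while NM_001009570 (orange) appears in both miR-28BIO libraries and NM_001166284 (green) in miR-28CT replicate 2, and CCT8 is split in the libraries numbered 2 of both arms.

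CCT5 had FPKM that lay outside the interval Cufflinks gave for the same value. Of the 43 values above 0 of the member transcripts, 4 did so, and these were the 4 values of CCT5. In miR-28CT the FPKM was 88.4 with an interval of 74.1 to 80.0 in replicate 1, and 50.7 with an interval of 104.3 to 112.3 in replicate 2. In miR-28BIO it was 104.5 with an interval of 82.9 to 89.4 in replicate 1, and 87.3 with an interval of 135.4 to 144.4 in replicate 2. By FPKM, then, the libraries numbered 2 were lower than those numbered 1, and by the intervals they were higher. Divided by the scaling factors, the intervals of the libraries numbered 1 were 69.6 to 75.2 in miR-28CT and 78.5 to 84.7 in miR-28BIO, with the tagged library higher. Those of the libraries numbered 2 overlapped, at 122.7 to 132.1 and 124.5 to 132.7. Over all transcripts of at least 1 FPKM, 16.4% to 33.4% of the values of a library lay outside their own interval.

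Some of the members share sequence with other annotated genes. In GENCODE 44, 1734 exonic bases of CCT5 are also covered by an exon of a lncRNA on the opposite strand, and 454 exonic bases of TCP1 by exons of ACAT2, an acetyl-CoA acetyltransferase gene, on the opposite strand. ACAT2 had a mean of 43.3 scaled FPKM, against 28.5 for TCP1, and a log2 fold change between the arms of 1.61, against -0.62 for TCP1. CCT4 shares 275 and 181 bases with exons of 2 antisense lncRNAs and CCT8 shares 85 with exons of a further one. The library kit was a stranded one, but whether strand was used in the estimate of abundance is not given in the sources used here, so reads of these partners cannot be told apart from those of the subunits, and their part in the values was not tested. CCT6A has close copies elsewhere in the genome. CCT6P1 was at 0.451 and 0.346 FPKM in untagged replicates 1 and 2 and 2.02 and 1.04 in tagged replicates 1 and 2, CCT6P3 was at 0.272 to 1.03 and CCT6B, a testis form, at 0.0512 to 0.243. These are small against the 38.7 to 69.3 FPKM of CCT6A, but how reads common to them were shared out is not known.

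The libraries numbered 2 were compared with those numbered 1, with the arm as a covariate. The choice of the genes rested on the comparison of the arms in the same 4 libraries, so it is not independent of this contrast. In it, 43.6% of all genes tested were called by limma at an adjusted p of 0.05 (2653 higher and 2276 lower in number 2), and 60.2% of the 929 genes with a mean at or above that of TCP1. Of the 8 TRiC genes 0 were called by limma and 0 had an unadjusted p under 0.05, which is given as a description because of how they were chosen. The absolute log2 difference had a median of 0.227 over the 8 genes and of 0.832 over all genes. The study speaks of biological replicates, but the labels do not say whether the libraries of a number shared a culture or a preparation. These p-values measure only the spread between the 4 libraries, which limma draws towards that of genes of like level.

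Among the TRiC genes the smallest adjusted p in this contrast was that of CCT6A, with means of 62.3 scaled FPKM in the libraries numbered 1 and 43.8 in those numbered 2 (log2 difference -0.53, 95% interval -1.13 to 0.06, limma adjusted p = 0.114). CCT8 had means of 74.7 and 55.5 (-0.43, interval -0.95 to 0.09, adjusted p = 0.133) and CCT5 of 91.0 and 69.9 (-0.39, interval -0.93 to 0.15, adjusted p = 0.174), a direction that the Cufflinks intervals of CCT5 turn. CCT4 (0.24, adjusted p = 0.357), CCT3 (0.21, adjusted p = 0.391) and CCT2 (-0.15, adjusted p = 0.518) differed less. TCP1 had means of 28.5 in both numbers (0.02, interval -0.47 to 0.51, adjusted p = 0.943), and CCT7 had means of 77.0 and 77.6 (interval -0.55 to 0.55, adjusted p = 0.998).

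Genes that act with TRiC were counted from fixed lists that had likewise been drawn up with earlier results known. Prefoldin hands unfolded actin and tubulin to TRiC. Of its 6 subunits 5 were tested (PFDN6 was listed at 0), and all 5 had a lower mean log2 level in the tagged arm, with a median log2 fold change of -0.85. The tagged arm lay below without overlap for 2, VBP1 and PFDN5, beside the 12.7% of all genes for which it did (12.3% above). Among the 929 genes with a mean at or above that of TCP1, 23.0% lay below, and their median was -0.61. These shares and this median are to be held against the lists that follow as well. PFDN5 stood at 90.8 and 202.4 scaled FPKM in miR-28CT and at 48.5 and 53.4 in miR-28BIO (-1.41), whereas PFDN2 overlapped (-0.18). By replicate number 2 prefoldin genes fell in the libraries numbered 2, PFDN1 (-1.09) and PFDN4 (-1.41), beside the 43.6% of all genes called by number.

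Of the 8 TRiC and tubulin folding cofactors, whose median was -0.10, TBCC alone had arms that did not overlap. It stood at 3.90 and 5.72 scaled FPKM in miR-28CT and 12.3 and 15.7 in miR-28BIO (1.53). TBCB, the most abundant, had a log2 fold change of -0.10. By replicate number TBCB (1.37) and TBCD (1.64) rose and TBCA (-1.52) and TBCE (-1.41) fell in the libraries numbered 2. These 4 of 8 stand beside the 43.6% of all genes called by number.

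The 12 actin and tubulin genes, the main clients, had a median log2 fold change of -0.78 between the arms. The tagged libraries were lower without overlap for TUBA1B, TUBB4B and TUBB6 and higher for TUBB. ACTB, at 329 to 814 scaled FPKM, had a log2 fold change of -0.55 and ACTG1, at 84.0 to 512.7, of -0.92, both with overlapping arms. By replicate number ACTG1 (1.69), TUBA1C (1.44), TUBB2A (2.96) and TUBG1 (1.03) rose and ACTR3 (-1.30) and TUBA1A (-1.33) fell in the libraries numbered 2. The 7 other clients had a median of -0.01, with PLK1 alone lower without overlap. Of these, CDC20 (-0.01 between the arms, 2.24 between the numbers), GNB2 (2.05), WRAP53 (0.86) and RPTOR (1.09) rose in the libraries numbered 2, and GNB1, a G protein beta subunit, did not pass the test (-0.39). The 6 of 12 and 4 of 7 called by number stand beside 43.6% of all genes and 60.2% of those with a mean at or above that of TCP1.

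Of 12 HSP70, HSP90 and mitochondrial chaperone genes, HSPA8 and DNAJB1 were lower in the tagged arm without overlap and 0 were higher, with a list median of -0.46. HSPA8, the constitutive HSP70, stood at 227.2 and 129.8 scaled FPKM in miR-28CT and 117.4 and 51.8 in miR-28BIO (-1.14). HSPE1, the mitochondrial partner of HSPD1 that every cell uses, was listed at 26.7 in miR-28CT replicate 2 and at 0 in the other libraries, so no level is read here from an exact 0. By replicate number 9 of the 12 fell in the libraries numbered 2, HSPA8 (-0.99), HSPA4 (-1.34), HSPH1 (-1.38), DNAJA1 (-2.08), STIP1 (-0.68), HSP90AA1 (-2.44), HSP90AB1 (-2.73), HSPD1 (-0.68) and HSPA5 (-0.97). HSPA8 and its partners can pass substrates on to TRiC. The share called by number was 43.6% over all genes and 60.2% over those with a mean at or above that of TCP1, and a difference between these lists and TRiC was not tested.

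Of 4 genes related to the TRiC subunits in sequence, which help to assemble the BBSome or are testis forms, MKKS and BBS10 were tested and BBS12 and CCT6B were below the filter. Both had tagged libraries above the untagged ones. BBS10 stood at 5.05 and 3.10 scaled FPKM in miR-28CT and at 13.5 and 10.0 in miR-28BIO (1.53), and MKKS at 4.90 and 4.58 against 5.33 and 5.35 (0.17). The difference of MKKS was smaller than its limma standard error of 0.38, which is not the spread of its own libraries alone. Of all genes, 12.3% lay above in the same way.

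**Figure D5:**
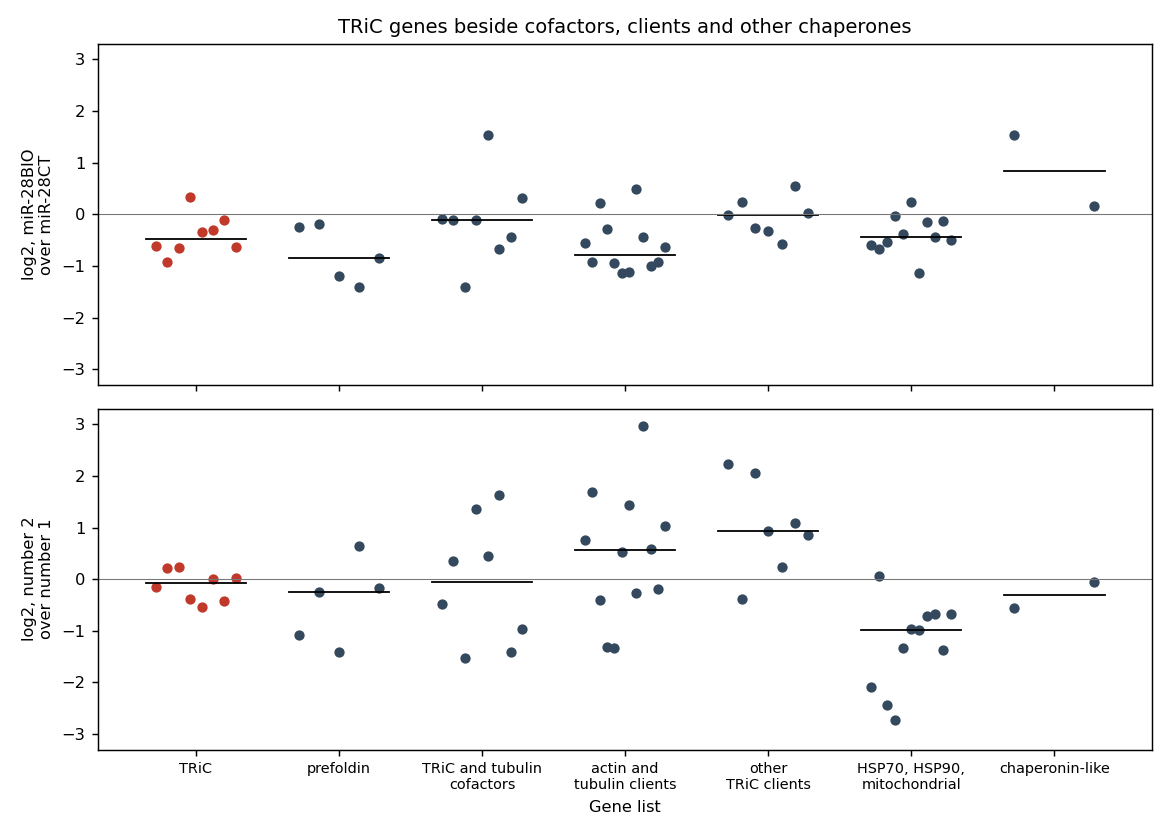
Log2 fold change of miR-28BIO over miR-28CT (top) and log2 difference between the libraries numbered 2 and 1 (bottom) for the genes tested of each list, with a point for each gene and a line for the median of the points drawn (HSPE1, listed at 0 in 3 libraries, is left out). The TRiC genes (red) span -0.92 to 0.34 in the top panel and -0.53 to 0.24 in the bottom panel, where 9 HSP genes fell and genes of the client lists rose and fell.

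The subunits differed among themselves in how closely they followed the profile that they had in common. The Euclidean distance of a gene's log2 levels over the 4 libraries, centred on their mean, to the median profile of the 8 was lowest for CCT2 (0.143), TCP1 (0.213) and CCT7 (0.234) and highest for CCT5 (0.876). Outside the complex the genes of the smallest distance were STBD1 (0.0732), SEM1 (0.0820) and GART (0.0856). SEM1, a small subunit of the proteasome lid, stood at 77.4, 75.7, 55.1 and 53.1 scaled FPKM in untagged replicates 1 and 2 and tagged replicates 1 and 2. GART, an enzyme of purine synthesis, stood at 27.9, 25.6, 20.9 and 18.1, and STBD1, a starch-binding protein, at 2.01, 1.81, 1.44 and 1.28. These distances over 4 libraries are a description only.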

How the data were processed

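RNA recovered by the pull out was sequenced as 50 base single reads in 4 libraries (2 of miR-28CT and 2 of miR-28BIO, by the sample labels). The submitters' processing notes name FastQC 0.10.1, cutadapt, TopHat2 2.0.9, hg38 and Cufflinks 2.1.1, and per library the authors deposited FPKM of 53209 RefSeq transcripts with Cufflinks intervals, a status and the mean read coverage. FPKM hold no read counts, so a count test could not be run, and reads were only estimated from the coverage that the authors deposited. Depth per transcript is not known exactly and no counting interval was calculated. Cufflinks divides reads among transcripts of a locus, which makes the division an estimate and the gene sum the firmer value.

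The 52530 transcripts of status OK in all libraries were scaled by median-of-ratios factors from the 11650 above 0 in all (0.850 to 1.09), named through the RefSeq table of GRCh38.p14 (95.8% of them) and summed per symbol. Features with a mean of at least 0.5 scaled FPKM (11309 genes, 15587 transcripts) were fitted as log2(scaled FPKM + 0.1) with limma 3.58.1 (lmFit, eBayes with a trend, R 4.3.3), with Benjamini-Hochberg adjustment and a threshold of 0.05. Fold changes on this scale understate those of low values. Exons came from GENCODE 44, matched by bounds and length. Named were the 8 genes and their transcripts, the 2 most abundant and any called genes of each list, and the 3 nearest profiles. Of the marker lists, 1 gene and the list that holds it are not reported here. The members and lists were chosen with earlier results of these data known. Alternatives were other pseudocounts, filters, scalings and statuses, no trend, a replicate block, the leading transcript and each library left out. The scripts were tested on simulated data. Python 3.11.15, pandas 2.3.3 and matplotlib 3.10.9 were used.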

Additional observations from a re-analysis of the deposited data

How the results depend on the processing

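The median log2 fold change of the 8 subunits stayed below 0 in every alternative run, at -0.47 to -0.30 with other settings and -0.55 to -0.38 with a library left out. Scaling moved all genes together. Their median was -0.08 with median-of-ratios factors, 0.02 with upper quartile factors and 0.08 in the FPKM as deposited, and relative to it the 8 genes lay at -0.39, -0.38 and -0.38. With median-of-ratios factors, the 929 genes with a mean at or above that of TCP1 had a median of -0.61, below the -0.47 of the 8 genes. Of 112 log2 fold changes of single members under alternatives, 6 changed sign. Those of CCT8 were 0.06 in the FPKM as deposited, 0.09 without miR-28CT replicate 1, 0.12 without miR-28BIO replicate 2 and 0.04 by its leading transcript, and those of CCT6A were 0.04 without miR-28BIO replicate 2 and 4.56 by its leading transcript. The number of TRiC genes with the tagged arm below was 4 in the FPKM as deposited (without CCT7), 4 by the leading transcript (without CCT4) and 5 to 7 with a library left out, with CCT6A and CCT8 added without miR-28CT replicate 2 or miR-28BIO replicate 1. The number with the tagged arm above was 0 to 1 with a library left out, the 1 being CCT5 without miR-28CT replicate 1 or miR-28BIO replicate 2.

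The 3 genes called lower between the arms fell to 0 with a pseudocount of 1, without a filter beyond a mean above 0, in limma without a trend and, at 0 to 0, with any library left out. The cause was not tested. Where a library was left out, the lone library of its arm was assumed to vary like the others. The replicate numbers are shared by the arms, but 2 numbers cannot show that they pair the libraries. Deviations of same-numbered libraries from their arm's mean correlated over genes (Pearson's r 0.623, Spearman's rho 0.830). With the replicate number as a block, 22 genes were called lower and 42 higher, and at an unadjusted p under 0.05 there were 1758 lower and 1158 higher, against 91 and 250 with neither a block nor a library left out and 126 and 91 without miR-28BIO replicate 2. Transcripts under that p numbered 1112 lower and 760 higher with the block, against 232 and 325. Transcripts called stayed at 0 in both directions under all alternatives. Between the numbers, 3882 to 5069 genes and 0 TRiC genes were called under other settings, and no library could be left out there, as no residual degrees of freedom would remain. The shares of leading transcripts changed little when taken by coverage times length, from 82.8% to 86.4% for CCT7 at most.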
